A study of Homo sapiens with 6 samples.

Results

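The transcripts described here are those of 46 genes whose proteins build the small ribosomal subunit: 39 components of the small subunit processome, among them the U3 proteins, and 7 late factors that stay on the 40S precursor. They were taken by gene symbol from the deposited table of 31966 genes. All 46 symbols had a row, and all 46 passed the filter on low counts that 18486 genes passed. RNA was sequenced from Kasumi-1, a cell line of human acute myeloid leukaemia. The 3 FBL knockdown libraries came from cells with a doxycycline-inducible short hairpin RNA against FBL (shFBL), and the 3 control libraries from cells with an inducible hairpin against luciferase (shLUC). Both groups received doxycycline at 100 ng/ml over 72 h, so the control cells carry an induced hairpin too. The labels name the target of the hairpin alone, and do not say whether 1 hairpin sequence served all libraries of a group or whether replicates were cultured separately, so the tests see only the spread between these libraries, which may be technical.

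In the nucleolus, the small subunit processome forms on the nascent ribosomal RNA precursor around the U3 small nucleolar RNA. The UTP-A and UTP-B subcomplexes load first on the 5′ external spacer, U3 pairs with the precursor, and nucleases, a GTPase and base-modifying enzymes then free and fold the 18S RNA. Fibrillarin, the product of FBL, is the methyltransferase of box C/D particles and a core protein of the U3 particle, so the depleted protein is itself part of this assembly. The late factors travel with the pre-40S particle to the cytoplasm, where the nuclease NOB1 makes the last cut of 18S RNA.

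Library totals lay between 85556322 and 95023102 counts in FBL knockdown and between 88541034 and 103148412 counts in control. FBL had 54.0, 32.4 and 44.9 CPM (counts relative to the scaled library total) in FBL knockdown, against 580, 550 and 544 CPM in control. Its log2 fold change was -3.67 ± 0.16 (SE), with an adjusted p of 3.93e-06 by edgeR's quasi-likelihood test, and the groups did not overlap. Of 10 myeloid markers of Kasumi-1, 9 reached 1 CPM in each group, whereas none of the T cell, fibroblast or epithelial markers in the table did. In the B cell list CD22 alone reached 1 CPM, and in the erythroid and platelet list ITGA2B alone. The mitochondrial share of counts was 14.7% to 18.8% in FBL knockdown and 12.4% to 15.2% in control, and its part in the results was not tested. One library of each group, FBL knockdown replicate 1 and control replicate 2, was richer in GC-rich transcripts than the rest of its group. Per 10% of GC content, log2 CPM relative to the mean of all libraries changed by 0.116, -0.0582 and -0.0206 in FBL knockdown and by -0.14, 0.15 and -0.0471 in control.

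Most of the 46 transcripts were less abundant in FBL knockdown. Their summed level was 1490, 1360 and 1440 CPM in FBL knockdown, against 1930, 1920 and 1910 CPM in control. The mean sum was 1430 ± 65.4 CPM in FBL knockdown and 1920 ± 14.1 CPM in control (SD, n = 3 each). In bulk RNA, fewer cells holding a transcript and less of it per cell cannot be told apart. By edgeR's quasi-likelihood test at an adjusted p under 0.05 over all tested genes, 26 of the 46 fell, 1 rose (EMG1) and 19 did not pass. Over all tested genes 17% were called lower and 15.8% higher. The median log2 fold change of the 46 was -0.44, against -0.006 over all tested genes, and 44 of the 46 lay below 0.

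The changes were modest in size. Only BMS1 and UTP3 fell by at least 2-fold, and 15 of the 26 had a log2 fold change of -0.5 or below. All 3 FBL knockdown libraries lay below all 3 control libraries for 28 members and above them for EMG1. Over all tested genes 23.1% lay below without overlap and 22.1% above. Of the 26 called lower, TBL3 and NOC4L overlapped between groups, and UTP4, UTP6, NGDN and PNO1 did not overlap without passing the test. For 13 genes (PWP2, RRP9, UTP3, BMS1, NAT10, UTP14A, WDR46, NOL6, RRP7A, AATF, PDCD11, BYSL and TSR1) the call held under every alternative setting that gave them a value. The number called lower depended on single libraries: it was 15 without FBL knockdown replicate 2, 16 without FBL knockdown replicate 3, 15 without control replicate 3 and 35 without control replicate 2. The share of all tested genes called lower moved the same way, at 11%, 9.78%, 12.2% and 19.4% in these 4 settings. Upper-quartile scaling moved the median of all genes to 0.059, turned the split over all genes to 2528 lower and 3597 higher, and left 19 members lower.

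**Figure D1:**
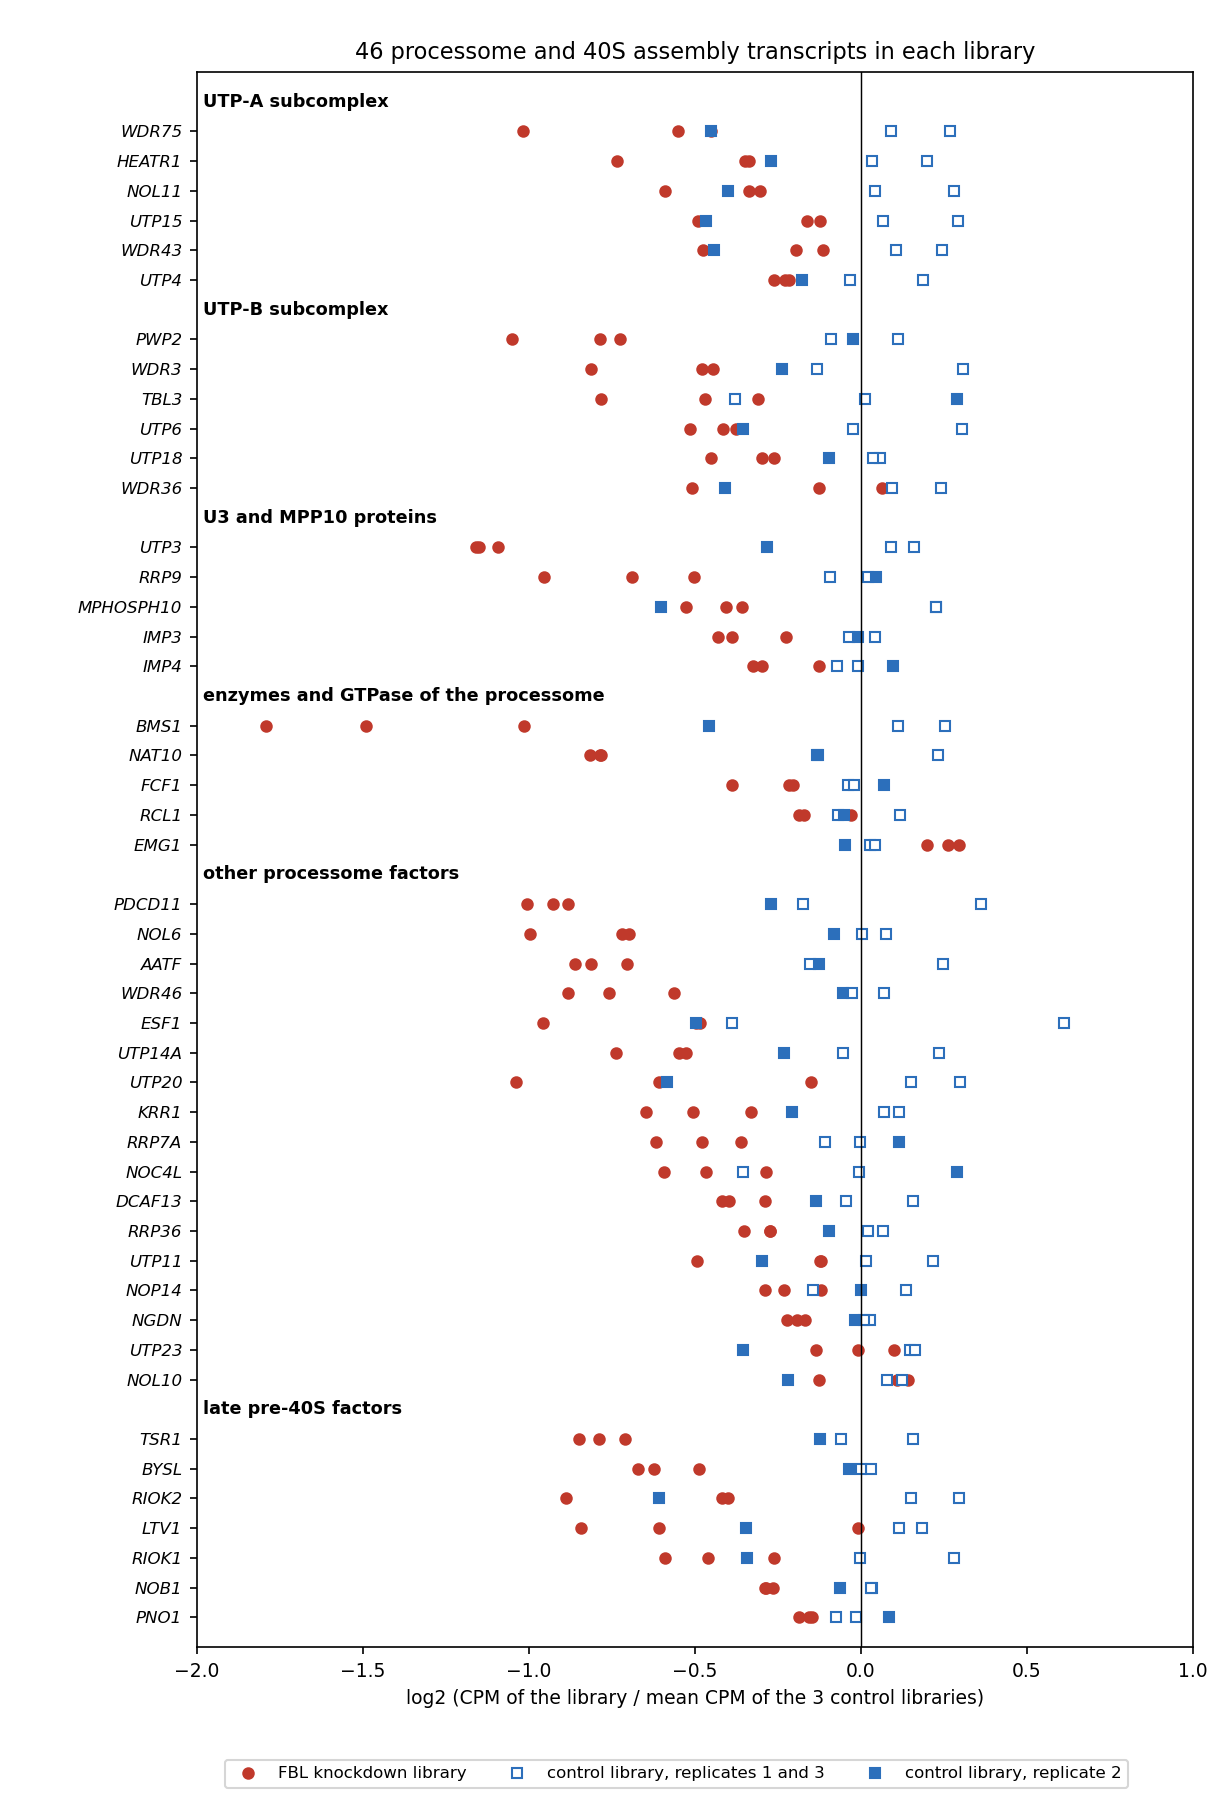
Log2 of the CPM in each library over the mean of the 3 control libraries, for each of the 46 genes by role. Red circles are FBL knockdown libraries, open squares control replicates 1 and 3, and filled squares control replicate 2. FBL knockdown points lie left of all control points for 28 genes, and control replicate 2 often lies nearest to them.

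The promoters of these genes were read because 44 of the 46 had a log2 fold change below 0. RefSeq promoter sequences (GRCh38.p14, 250 bases before to 50 after the start) were available for 42 of the 46 members; there was no entry for DCAF13, UTP23, NOL10 and MPHOSPH10. The palindromic E-box CACGTG, the letters that MYC-MAX dimers are known to bind, occurred in 18 of 42 (42.9%). It occurred in 1374 of 11040 promoters of tested genes (12.4%) and in 312 of 2189 promoters of genes called lower (14.3%). Among the members it was present in 10 of 25 called lower (40%) and in 8 of 17 not called lower (47.1%), so it was no more frequent among the members that fell. There were 20 occurrences, and 16 of them began within 50 bases of the start. A window around the E-box is printed for 8 of these 18 members, 6 of which fell and 2 of which (UTP4 and PNO1) did not pass. The printed windows are a selection and do not reflect the split over all 18, where 10 fell and 8 did not. Each window is given in the direction of the gene and with the E-box in capitals.
PWP2, chr21:44107388-44107417, plus strand: tgagctgcggcaCACGTGcgacggccgtga
RRP9, chr3:51941892-51941921, minus strand: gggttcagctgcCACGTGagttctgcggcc
NAT10, chr11:34105602-34105631, plus strand: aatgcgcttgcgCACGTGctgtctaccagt
NOL6, chr9:33473894-33473923, minus strand: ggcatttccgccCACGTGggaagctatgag
AATF, chr17:36948785-36948814, plus strand: gacagaagcggtCACGTGccttggcgcgct
BYSL, chr6:41921515-41921544, plus strand: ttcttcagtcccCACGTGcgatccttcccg
UTP4, chr16:69132621-69132650, plus strand: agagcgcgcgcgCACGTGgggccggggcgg
PNO1, chr2:68157885-68157914, plus strand: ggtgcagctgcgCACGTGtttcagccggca

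In PWP2, RRP9, NOL6, PNO1, NAT10 and UTP4 the E-box begins within 16 bases of the start, in BYSL 29 bases after it and in AATF 157 bases before it. Other motifs were searched on both strands in the same windows. The ETS motif CCGGAAG occurred in 42.9% of member promoters and 21.4% of those of tested genes, the GC box GGGCGG in 81% and 75.8%, and the CCAAT box in 40.5% and 42%. The YY1 motif AAGATGGCG occurred in 7.14% and 4.46%, and the CRE motif TGACGTCA in 2.38% and 3.74%. The E-box was also present in 31.8% of promoters of other genes of the 40S pathway, in 31.2% of those of 60S assembly factors and in 7.69% of those of 40S ribosomal proteins. A match describes letters in a window and does not show that a factor binds there.

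The UTP-A subcomplex, the first to load on the precursor, fell in part: 2 of 6 members passed the test, none rose, and the median log2 fold change was -0.33. WDR75, a WD-repeat subunit, had 1.23, 1.70 and 1.82 CPM in FBL knockdown, against 3.00, 1.82 and 2.65 CPM in control. Control replicate 2 lay just above FBL knockdown replicate 3, at the same rounded value, and the groups did not overlap (log2 fold change -0.66 ± 0.21 (SE), edgeR adjusted p = 0.032). HEATR1, the large HEAT-repeat subunit that is Utp10 in yeast, had 4.72, 6.22 and 6.17 CPM in FBL knockdown, against 9.03, 6.51 and 8.04 CPM in control. The groups lay apart by a small gap to control replicate 2 (log2 fold change -0.46 ± 0.15, edgeR adjusted p = 0.0335). NOL11, a subunit needed for processing of the precursor in human cells, had 11.5, 14.0 and 13.7 CPM in FBL knockdown, against 21.0, 13.1 and 17.8 CPM in control. Here control replicate 2 lay inside the FBL knockdown range, and the log2 fold change of -0.40 ± 0.15 did not pass (edgeR adjusted p = 0.0688). UTP4, also called cirhin, had 62.9, 65.0 and 64.4 CPM in FBL knockdown, against 85.9, 66.8 and 73.8 CPM in control. The groups did not overlap, control replicate 2 being the nearest (log2 fold change -0.24 ± 0.10, edgeR adjusted p = 0.0879). CHTF8, which overlaps UTP4 on the other strand and holds 152543 counts against 39505 for UTP4, fell by 0.34 on the log2 scale (edgeR adjusted p = 0.00837), and with the strand setting unknown their shared reads cannot be assigned. UTP15 and WDR43, both at -0.25, did not pass either. Without control replicate 2 all 6 passed, with log2 fold changes of -0.84 for WDR75, -0.58 for HEATR1, -0.57 for NOL11, -0.43 for UTP15 and WDR43 and -0.32 for UTP4. Omitting control replicate 1 instead gave -0.51 for WDR75, -0.36 for HEATR1, -0.25 for NOL11, -0.08 for UTP15, -0.12 for WDR43 and -0.14 for UTP4. None of the 6 passed in that setting (edgeR adjusted p 0.0693 to 0.782). The calls of WDR75 and HEATR1 were lost when any single library other than control replicate 2 was left out, with edgeR adjusted p from 0.0553 to 0.105. Over all alternatives the WDR75 call was lost in 10 of 21 and the HEATR1 call in 12 of 22.

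In the UTP-B subcomplex, which binds next to UTP-A and contacts U3, 4 of 6 members fell and none rose, with a median of -0.47. PWP2, the WD-repeat scaffold that is Utp1 in yeast, had 28.2, 22.5 and 27.0 CPM in FBL knockdown, against 50.3, 45.8 and 43.8 CPM in control. The groups were far apart, and the log2 fold change was -0.85 ± 0.10 (edgeR adjusted p = 0.000201), the lowest adjusted p of the 46. WDR3 had 2.14, 2.70 and 2.76 CPM in FBL knockdown, against 4.65, 3.19 and 3.43 CPM in control. No FBL knockdown library reached the controls (log2 fold change -0.57 ± 0.17, edgeR adjusted p = 0.0239). TBL3, Utp13 in yeast, had 69.3, 49.9 and 62.0 CPM in FBL knockdown, against 66.1, 105 and 86.7 CPM in control. In contrast to the UTP-A genes, control replicate 2 was here the highest library, and FBL knockdown replicate 1 lay above control replicate 1. The log2 fold change of TBL3 was -0.51 ± 0.16 (edgeR adjusted p = 0.0328). UTP18 fell by 0.34 on the log2 scale (SE 0.09), and UTP6, at -0.43 ± 0.15, missed the threshold with an edgeR adjusted p of 0.0505. WDR36 had 5.01, 6.53 and 7.45 CPM in FBL knockdown, against 8.42, 5.37 and 7.61 CPM in control. The groups overlapped (log2 fold change -0.17 ± 0.18, edgeR adjusted p = 0.5). Leaving out single libraries ended the call of WDR3 for FBL knockdown replicates 1, 2 and 3 and control replicate 1 (edgeR adjusted p 0.0529 to 0.0784), of TBL3 for FBL knockdown replicates 2 and 3 and control replicate 3 (0.0882 to 0.154), and of UTP18 for FBL knockdown replicate 3 and control replicate 3 (0.0603 and 0.064). Over all alternatives the WDR3 call was lost in 8 of 21 and the TBL3 call in 8 of 22. Without control replicate 2, UTP6 passed at -0.58 (edgeR adjusted p = 0.000745). Omitting control replicate 1 instead left UTP6 at -0.26, which did not pass (edgeR adjusted p = 0.152).

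Of the proteins of U3 and the MPP10 complex, which hold the U3 RNA in place on the precursor, 4 of 5 fell and none rose, with a median of -0.43. UTP3, called Sas10 in yeast, had 1.29, 1.24 and 1.23 CPM in FBL knockdown, against 3.07, 2.26 and 2.93 CPM in control. The FBL knockdown libraries were nearly equal, and the log2 fold change was -1.13 ± 0.15 (edgeR adjusted p = 0.000372), which leaves 45.5% of the control level. RRP9, the protein that marks U3 among box C/D particles, had 89.6, 65.5 and 78.8 CPM in FBL knockdown, against 119, 131 and 129 CPM in control. All FBL knockdown libraries lay below the lowest control (log2 fold change -0.70 ± 0.11, edgeR adjusted p = 0.000914). IMP4, which bridges U3 and the precursor, had 132, 115 and 117 CPM in FBL knockdown, against 137, 154 and 143 CPM in control. The gap between the groups was narrow (log2 fold change -0.25 ± 0.09, edgeR adjusted p = 0.0466). IMP3, which sits in the same complex, fell by 0.35 on the log2 scale (SE 0.08). MPHOSPH10, the scaffold of the complex, had 1.36, 1.48 and 1.53 CPM in FBL knockdown, against 2.29, 1.29 and 2.29 CPM in control. Control replicate 2 lay below all FBL knockdown libraries, and the log2 fold change of -0.43 ± 0.21 did not pass (edgeR adjusted p = 0.148). Without control replicate 2 it was -0.66 (edgeR adjusted p = 0.00174), and without control replicate 1 it was -0.31 (edgeR adjusted p = 0.309). The call of IMP4 was lost in 13 of 22 alternatives. Among them were the omissions of FBL knockdown replicate 2 or 3 or control replicate 2 or 3 (edgeR adjusted p 0.0973 to 0.251). That of IMP3 was lost without FBL knockdown replicate 2 or control replicate 3 (edgeR adjusted p 0.0509 and 0.0523).

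The shared core proteins of box C/D particles, fibrillarin's own partners, are not among the 46. The log2 fold change was -0.20 for NOP56, -0.23 for NOP58 and -0.09 for SNU13, and none passed (edgeR adjusted p 0.242, 0.299 and 0.357).

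Among the enzymes and the GTPase of the processome, 3 of 5 fell and 1 rose. BMS1, the GTPase, had the largest log2 fold change of the 46: 0.748, 0.607 and 1.04 CPM in FBL knockdown stood against 2.27, 1.53 and 2.50 CPM in control. The groups did not overlap (log2 fold change -1.40 ± 0.24, edgeR adjusted p = 0.00125). The gene (GRCh38 chromosome 10, 42782801 to 42834937) has 14 pseudogene rows in the table with 705 counts in all, against 831 counts for BMS1 itself, and how reads that match several places were counted is not given in the sources used here. RCL1, the protein that BMS1 is known to bring to the particle in yeast, had 8.68, 8.77 and 9.67 CPM in FBL knockdown, against 10.7, 9.52 and 9.40 CPM in control. The groups overlapped (log2 fold change -0.13 ± 0.10, edgeR adjusted p = 0.358). NAT10, the acetyltransferase of 18S cytidines, had 45.0, 44.0 and 44.9 CPM in FBL knockdown, against 90.9, 70.6 and 70.7 CPM in control. All 3 FBL knockdown libraries lay well below the lowest control (log2 fold change -0.79 ± 0.11, edgeR adjusted p = 0.000329). FCF1, the PIN-domain nuclease known in yeast as Utp24, had 12.4, 12.5 and 11.0 CPM in FBL knockdown, against 14.0, 15.1 and 14.2 CPM in control. Its log2 fold change of -0.27 ± 0.09 was just past the threshold (edgeR adjusted p = 0.0468), and the call was lost in 17 of 22 alternatives, among them the omission of each library other than control replicate 1 (0.0622 to 0.258).

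EMG1, the methyltransferase of an 18S pseudouridine, was the one member called higher. It had 116, 121 and 124 CPM in FBL knockdown, against 103, 97.7 and 104 CPM in control. The groups did not overlap, and the log2 fold change was 0.25 ± 0.08 (edgeR adjusted p = 0.0292). It stayed past the threshold without FBL knockdown replicate 1 and lost the call when any other single library was left out, with edgeR adjusted p of 0.0826 without FBL knockdown replicate 2, 0.0935 without replicate 3, and 0.0509, 0.0679 and 0.0915 without control replicates 1, 2 and 3. The EMG1 annotation (chromosome 12, 6970893 to 6997428, plus strand) overlaps LPCAT3 on the other strand, an acyltransferase gene of phospholipid metabolism. LPCAT3 had 142, 147 and 147 CPM in FBL knockdown, against 120, 114 and 119 CPM in control, and rose by 0.31 ± 0.07 (edgeR adjusted p = 0.00941). The strand setting of the counting is not given in the sources used here, so reads from the stretch they share cannot be assigned to 1 of the 2 genes.

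Of the 17 other processome factors 10 fell and none rose, with a median of -0.49. PDCD11, Rrp5 in yeast and an RNA-binding protein that acts in both subunits, had 6.67, 6.13 and 6.47 CPM in FBL knockdown, against 15.8, 10.2 and 10.9 CPM in control. Control replicate 1 was the highest library, and the groups did not overlap (log2 fold change -0.93 ± 0.15, edgeR adjusted p = 0.00116). NOL6, Utp22 in yeast, had 58.1, 47.2 and 57.2 CPM in FBL knockdown, against 99.2, 89.1 and 94.3 CPM in control. The groups lay far apart (log2 fold change -0.80 ± 0.10, edgeR adjusted p = 0.000208). RRP7A, which joins NOL6 in a subcomplex, had the highest level per length of the 46, 57.7 RPKM in FBL knockdown and 81.1 ± 6.58 RPKM in control, and fell by 0.49 on the log2 scale (SE 0.09).

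AATF, the scaffold of a module with NGDN and NOL10, had 29.1, 26.1 and 27.0 CPM in FBL knockdown, against 56.3, 43.4 and 42.6 CPM in control. It fell by 0.79 on the log2 scale (SE 0.11, edgeR adjusted p = 0.000524). Its module partners did not pass the test: NGDN had a log2 fold change of -0.20 ± 0.08 with no overlap of the groups, and NOL10 of 0.04 ± 0.12. WDR46 (-0.73 ± 0.10), UTP14A (-0.60 ± 0.13), KRR1 (-0.49 ± 0.12), NOC4L (-0.44 ± 0.15), DCAF13 (-0.37 ± 0.10) and RRP36 (-0.30 ± 0.08) fell as well. NOP14, which binds NOC4L in yeast, was at -0.21 ± 0.09 and did not pass, nor did ESF1 (-0.64 ± 0.33), UTP20 (-0.56 ± 0.27) or UTP11 (-0.23 ± 0.15). UTP23, a relative of FCF1 whose PIN domain is inactive in yeast, had 2.54, 2.77 and 2.99 CPM in FBL knockdown, against 3.09, 2.18 and 3.12 CPM in control. The FBL knockdown libraries lay within the control range (log2 fold change -0.01 ± 0.16, edgeR adjusted p = 0.953). EIF3H and RAD21 overlap UTP23 on the other strand and did not pass either (0.03 ± 0.10 and 0.03 ± 0.13). Their mean control levels were 56.7 and 19.8 CPM, against 2.79 CPM for UTP23, and reads from shared stretches cannot be assigned. The NOC4L call was lost in 11 of 22 alternatives. Among them were the omissions of FBL knockdown replicate 2 or 3 or control replicate 2 or 3 (edgeR adjusted p 0.0626 to 0.165). RRP36 lost its call without FBL knockdown replicate 2 or 3 or control replicate 3 (edgeR adjusted p 0.0577 to 0.134). KRR1 lost it without FBL knockdown replicate 2 or control replicate 3 (0.0529 and 0.052), and DCAF13 without FBL knockdown replicate 3 (0.0874). Genes on the other strand that overlap members moved both ways or did not pass. SLC25A32, opposite DCAF13, rose by 0.75 ± 0.11 by edgeR's test. PFDN6 opposite WDR46 (-0.51 ± 0.08), GLIPR1 opposite KRR1 (-0.63 ± 0.12) and SERHL opposite RRP7A (-0.47 ± 0.09) fell by the same test. B3GALT4 opposite WDR46 (0.22 ± 0.13) and NOP14-AS1 opposite NOP14 (-0.18 ± 0.08) did not pass. In other role groups ANKRA2 opposite UTP15, LGALS8 opposite HEATR1, NOXO1 opposite TBL3, SNX33 opposite IMP3 and CCDC115 opposite IMP4 did not pass either. As with EMG1, reads from the stretches these pairs share cannot be assigned to 1 strand.

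The late factors of the pre-40S particle fell in 3 of 7 cases, and none rose, with a median of -0.44. TSR1, a GTPase-like protein that blocks premature joining of translation factors, had 8.16, 8.51 and 8.98 CPM in FBL knockdown, against 16.4, 13.5 and 14.1 CPM in control. The gap between the groups was wider than either range (log2 fold change -0.78 ± 0.10, edgeR adjusted p = 0.000315). SGSM2 and SRR overlap TSR1 on the other strand, under the same limit. SRR fell by 0.44 on the log2 scale (SE 0.11). SGSM2, with 16881 counts against 6613 for TSR1, was at 0.04 ± 0.11 and did not pass (edgeR adjusted p = 0.805). BYSL, bystin, Enp1 in yeast, had 49.8, 43.8 and 45.3 CPM in FBL knockdown, against 71.3, 68.1 and 69.8 CPM in control. The control libraries were nearly equal and lay well above (log2 fold change -0.59 ± 0.08, edgeR adjusted p = 0.000422). NOB1, the nuclease of the last cut, fell by 0.28 on the log2 scale (SE 0.08). That call was lost without FBL knockdown replicate 2 or 3 or control replicate 3 (edgeR adjusted p 0.0572 to 0.11). AC092115.3 overlaps NOB1 on the other strand, with 13323 counts against 50110 for NOB1, and their shared reads cannot be assigned either. PNO1, the KH-domain partner of NOB1, had 24.6, 25.3 and 25.1 CPM in FBL knockdown, against 27.7, 29.7 and 26.6 CPM in control. The groups did not overlap, but the log2 fold change of -0.16 ± 0.08 did not pass (edgeR adjusted p = 0.158).

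RIOK2, a kinase that primes the particle for cytoplasmic maturation, had 1.07, 1.50 and 1.48 CPM in FBL knockdown, against 2.20, 1.30 and 2.43 CPM in control. Control replicate 2 lay within the FBL knockdown range (log2 fold change -0.55 ± 0.23, edgeR adjusted p = 0.0909). The related kinase RIOK1 was at -0.43 ± 0.17, and LTV1, an export-linked factor, at -0.44 ± 0.22. Neither passed. Without control replicate 2 all 3 passed, at -0.78 for RIOK2, -0.58 for RIOK1 and -0.59 for LTV1 (edgeR adjusted p 0.000862, 0.00339 and 0.0179), and LTV1 also without FBL knockdown replicate 3 (-0.69, 0.0429). Omitting control replicate 1 instead gave -0.48 for RIOK2, -0.28 for RIOK1 and -0.36 for LTV1. None of the 3 passed in that setting (edgeR adjusted p 0.152, 0.201 and 0.262).

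The 46 transcripts differed widely in level and in base composition, and the 2 went together. Mean control levels per length ran from 0.109 ± 0.0319 RPKM for UTP20 to 81.1 ± 6.58 RPKM for RRP7A (SD, n = 3), a 744-fold range, and in FBL knockdown UTP20 was at 0.0738 RPKM. GC content of the longest transcript ran from 35.4% in ESF1 to 64.8% in NOC4L. Across the 46 genes GC content and log2 control RPKM had a Spearman correlation of 0.823 (Pearson 0.815), against 0.247 over 18439 tested genes and 0.291 over 12799 tested protein-coding genes. These are descriptions across genes measured in the same 3 libraries, and genes are not independent replicates. RPKM is scaled for length and not for GC content, and the part of library GC bias in these levels was not tested. GC content and the log2 fold change had a Spearman correlation of -0.231 across the 46.

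**Figure D2:**
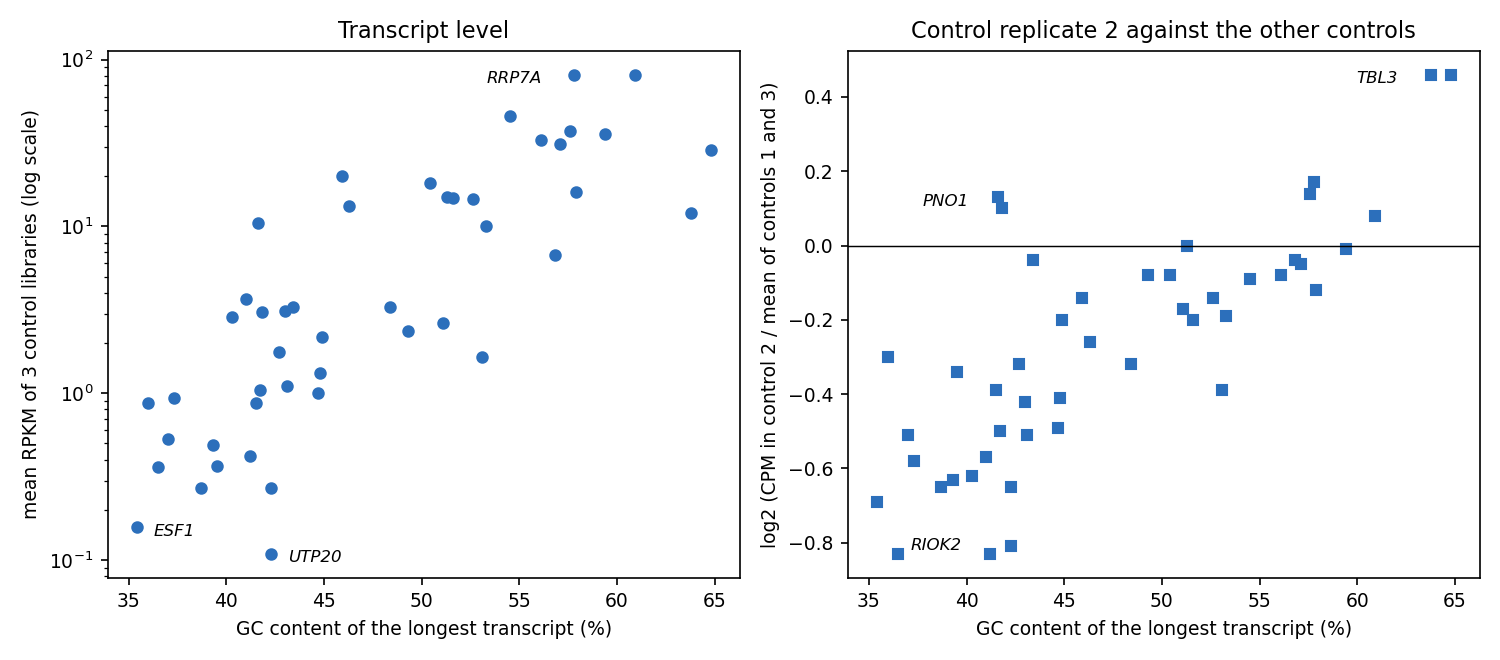
GC content of the longest transcript (percent) for the 46 genes, against mean RPKM of the 3 control libraries on a log scale (left) and against the log2 ratio of control replicate 2 to the mean of control replicates 1 and 3 (right). Levels rise with GC content from 0.109 to 81.1 RPKM, and control replicate 2 lies below the other controls for nearly all GC-poor genes.

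The controls spread along the same axis. Over all tested genes, log2 CPM per 10% of GC content changed by -0.14, 0.15 and -0.0471 in control replicates 1, 2 and 3. Control replicates 1 and 2 thus lay at opposite ends, and these values do not show which of them is unusual. The log2 ratio of control replicate 2 to the mean of control replicates 1 and 3 had a Spearman correlation of 0.762 with GC content across the 46. In the 23 members of lowest GC content (GC-poor, 35.4% to 44.8%) control replicate 2 was the lowest control for 21, with a median log2 ratio of -0.51. In the 23 of highest GC content (GC-rich, 44.9% to 64.8%) it was the lowest control for 13 and the highest for 5, with a median log2 ratio of -0.08.

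The calls split in the same way. Of the GC-rich members 19 of 23 members fell, 1 rose and 3 did not pass, whereas of the GC-poor members 7 fell and 16 did not pass. The median log2 fold changes were close, -0.49 for GC-rich and -0.43 for GC-poor members, while the median SE was 0.1 and 0.17. Median control levels were 14.9 RPKM for GC-rich and 0.933 RPKM for GC-poor members, so level, base composition and spread cannot be told apart within the 46. Without control replicate 2, 18 GC-rich and 17 GC-poor members passed as lower, and the median was -0.43 for GC-rich and -0.58 for GC-poor members. This omission added UTP4, UTP15, NOL11, WDR43, UTP6, MPHOSPH10, UTP11, UTP20, ESF1, LTV1, RIOK1 and RIOK2, and lost IMP4, FCF1, NOC4L and the rise of EMG1. Omitting control replicate 1, at the other end of the GC slopes, left 23 of the 46 lower, with a members' median of -0.36. In that setting 3059 of 18778 tested genes were called lower. GC-rich and GC-poor members were not counted apart there. With a correction for GC content in each library 20 GC-rich and 12 GC-poor members passed as lower, at 23.5% of all tested genes. Without FBL knockdown replicate 1 and control replicate 2, a setting chosen after seeing the data, the numbers were 20 and 13, at 19.4% of all tested genes.

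**Figure D3:**
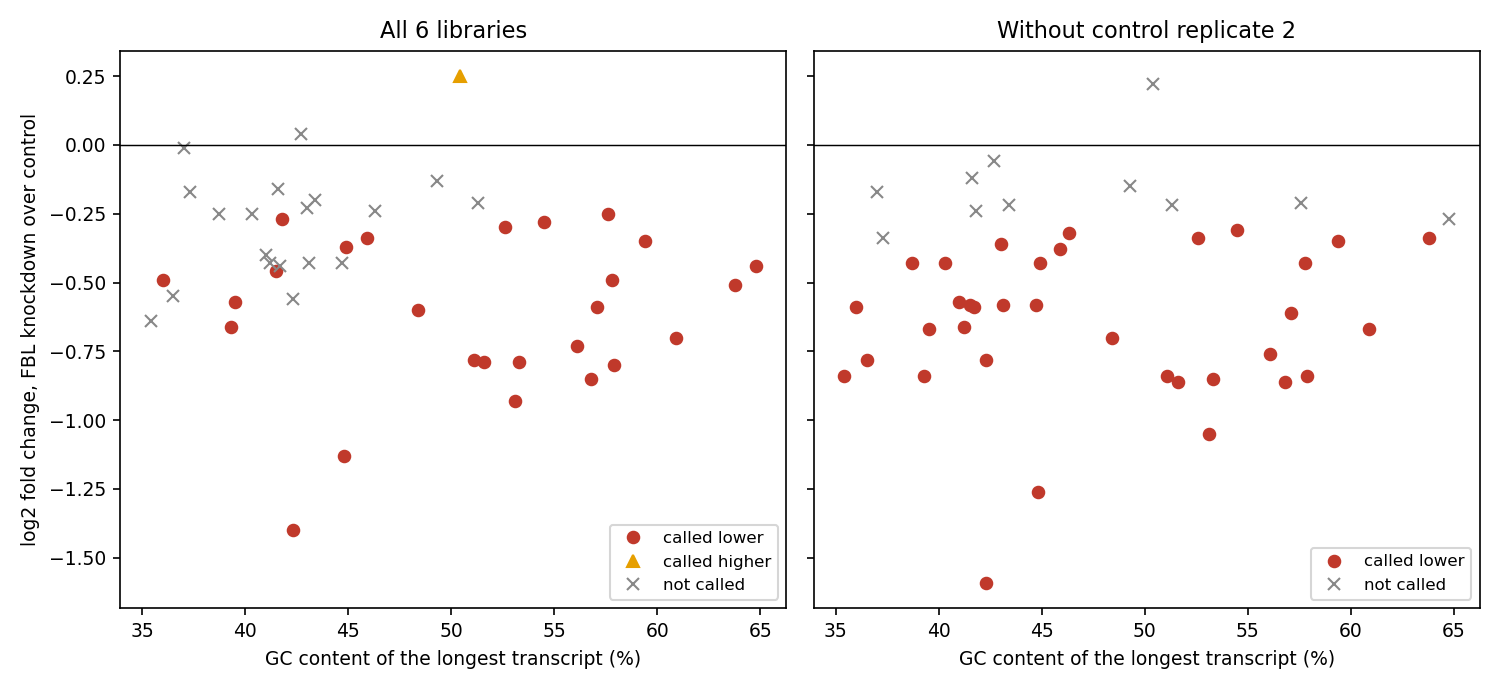
Log2 fold change of FBL knockdown over control against GC content of the longest transcript (percent) for the 46 genes, with all 6 libraries (left) and without control replicate 2 (right). Red circles passed as lower, the orange triangle (EMG1) as higher, and grey crosses did not pass. With all libraries 7 of the 23 GC-poor members are red, and without control replicate 2, 17 are.

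Other genes of ribosome assembly were set beside the 46. Of 28 tested genes of the same pathway outside the 46 (helicases, methyltransferases, box C/D core and further 40S factors), 15 fell (53.6%) and none rose, with a median of -0.36. NOP9 (-0.95 ± 0.10), NOM1 (-0.80 ± 0.12), DDX10 (-0.73 ± 0.25) and RRP12 (-0.69 ± 0.09) had the largest changes among them, all called by edgeR's test. DDX10 passed narrowly (edgeR adjusted p = 0.0472) and its groups overlapped. It had 0.933, 1.32 and 1.58 CPM in FBL knockdown, against 2.74, 1.39 and 2.24 CPM in control. The count of this list was 8 without FBL knockdown replicate 2 and 7 without FBL knockdown replicate 3. In these settings 11% and 9.78% of all tested genes were called lower. Of 55 tested 60S assembly factors 35 fell (63.6%) and none rose, with a median of -0.47, led by FTSJ3 (-1.20 ± 0.15) and DDX54 (-1.06 ± 0.10). The 40S ribosomal proteins, the structural components of the subunit that the 46 proteins assemble, did not share this direction. Of 33 tested, 1 fell (3.03%) and 7 rose (21.2%), with a median of 0.14. Over all tested genes 17% were called lower and 15.8% higher, so the share that rose was near that of all genes. The number higher was 3 without FBL knockdown replicate 2 or 3 and 4 without control replicate 1 or 3. Over all tested genes, 1861 of 18724 and 2182 of 18755 were called higher without FBL knockdown replicates 2 and 3. For control replicates 1 and 3 these numbers were 2797 of 18778 and 1909 of 18772. The ribosomal proteins called higher numbered 13 with upper-quartile scaling and 16 with the GC correction. In these last settings 3597 and 4227 of all 18486 tested genes were called higher. Whether these lists differ from each other was not tested.

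**Figure D4:**
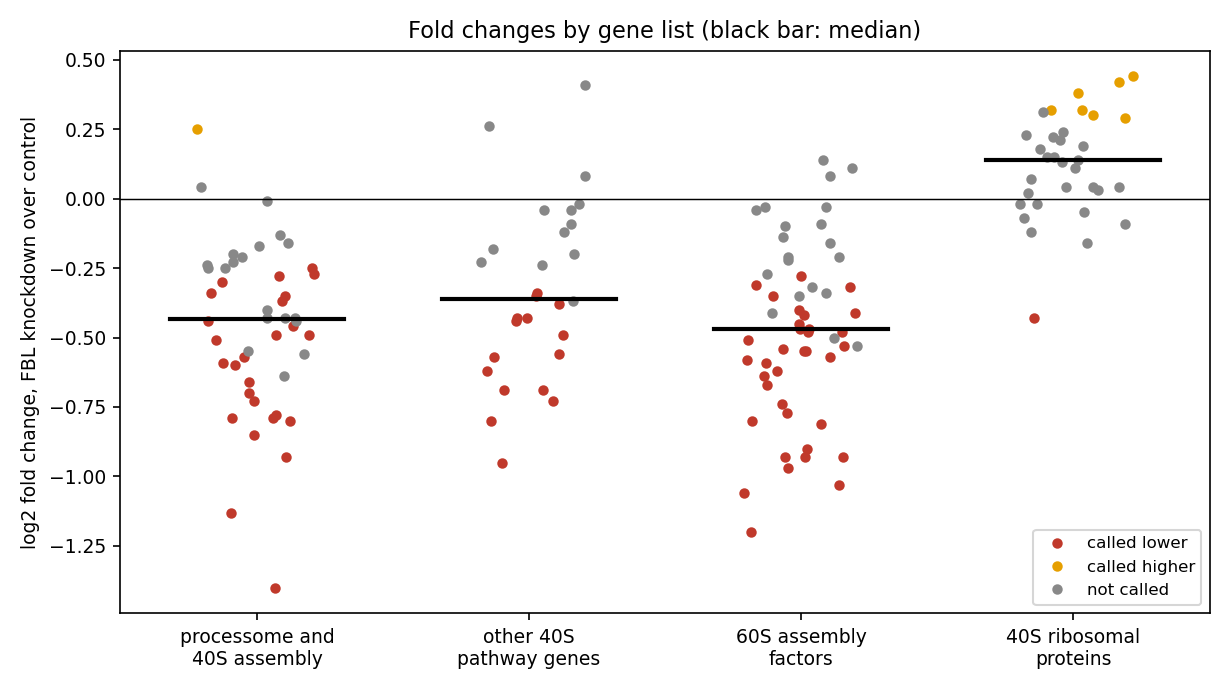
Log2 fold change of FBL knockdown over control for each tested gene of 4 lists, with the median as a black bar. Red points passed as lower, orange as higher and grey did not pass; the medians are -0.44, -0.36, -0.47 and 0.14 from left to right.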

How the data were processed

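The authors deposited 2 tables, 1 of raw gene counts with gene lengths and 1 of RPKM values, both covering all 6 libraries. RPKM computed again from counts, lengths and TMM-scaled totals (TMM is edgeR's trimmed mean of M values) matched 191796 of 191796 deposited RPKM values within 1e-06, so both tables hold 1 measurement. Per the submitters' processing notes, the tools were HISAT2, featureCounts, edgeR and cutadapt 1.18 and the build was GRCh38. Per the labels' protocols, total RNA was the input of a NEBNext Ultra kit. Strand setting, annotation release and multimapping rule were not found in the labels. No column was left unused.

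Counts were filtered with filterByExpr (minimum count 10, minimum total 15) and TMM-scaled, and FBL knockdown was compared with control by edgeR 4.0.16's quasi-likelihood test on group alone in R 4.3.3, with Benjamini-Hochberg adjustment over 18486 genes and a threshold of 0.05. The script was tested on simulated data. SE values derive from the F statistic, and CPM is relative to the TMM-scaled total. Positions, strands and GC content came from GENCODE release 29, matched for 31848 genes. Alternatives were other scalings, filters, DESeq2 1.42.0, limma 3.58.1 (voom, or log2(RPKM + 1) and log2(RPKM + 0.1), where a pseudocount shrinks changes of low genes), a replicate block, a GC offset (lowess span 0.3), protein-coding genes alone and the omission of each library. No pair of libraries agreed within sampling noise. Members, lists and tests were chosen with earlier results of these data known. Values per library are given, in each role group, for the 3 members with the largest change, the 1 with the smallest and any called higher; outside the 46, the largest changes of each list are named. NOP56, NOP58, SNU13 and the genes on the other strand were added to that rule. Mass spectrometry was not analysed here.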

Additional observations from a re-analysis of the deposited data

How the results depend on the processing

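Each result was recomputed under 22 alternatives. FBL kept its direction and call under all of them, the number of 60S assembly factors called lower ran from 24 to 44, and the members' median stayed below 0. Of 1000 member values, 851 kept direction and side of the threshold, 107 lost the call, 36 gained it and 6 changed sign. The sign changes were in UTP23, at 0.05 with upper-quartile scaling, 0.0 with limma voom, and 0.04, 0.05 and 0.07 without FBL knockdown replicate 1, control replicate 1 and control replicate 3, and in NOL10, at -0.06 without control replicate 2 (ranges over single omissions -0.17 to 0.07 for UTP23 and -0.06 to 0.12 for NOL10). Leaving out each library in turn gave 15 to 35 members lower, 0 to 1 higher, 3923 to 6943 genes called, a members' median of -0.57 to -0.36, 7 to 18 other 40S pathway genes lower and 3 to 10 40S ribosomal proteins higher. Limma-trend on log2(RPKM + 1) gave a members' median of -0.21 with and without the filter on low values. Without that filter it left 17 members lower, 7 other 40S pathway genes lower and 4 ribosomal proteins higher. Of the 31966 genes tested in that setting, 2196 were called lower and 2007 higher. No member was called higher by library totals alone or without a filter on counts. The 40S ribosomal proteins called higher numbered 13 with upper-quartile scaling, 12 with the stricter filter (1 CPM or more in at least 3 libraries, mean CPM of 5 or more), 16 with the GC correction and 11 without the 2 GC-rich libraries. Over all tested genes, 3597 of 18486, 1926 of 9186, 4227 of 18486 and 3798 of 18647 were called higher in these settings. The causes were not tested. Low counts limit ESF1, UTP20 and BMS1, whose lowest libraries held 24, 49 and 56 counts.

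The labels give both groups replicate numbers 1 to 3. Deviations of same-numbered libraries from their group means correlated at -0.284, -0.198 and 0.0449. The highest value over all number pairs, 0.312, was between FBL knockdown replicate 1 and control replicate 2, the GC-rich libraries. With 3 libraries per group and no GC correction, these values cannot show whether the numbers pair the samples. With the replicate number as a block, 3833 of 18486 tested genes were called, 1987 lower and 1846 higher. In that setting 15 members were lower and 0 higher, 7 other 40S pathway genes were lower and 3 ribosomal proteins higher. With the block and the GC correction together, 32 members were lower and 16 ribosomal proteins higher. Over all 18486 tested genes, 4050 were then called lower and 3932 higher.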
